A study of Mus musculus with 16 samples.

Results

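The chromosome 1 locus of Cd28, Ctla4 and Icos held 80 of the 75363 open chromatin regions deposited for this series, or 0.106% of the list (exact binomial 95% interval 0.0842 to 0.132%, for counting error only). Its members are all regions that overlap chr1:60750000-61110000 on genome build mm9, a window of 360 kb. The window was chosen by the positions of the regions themselves, because many of them lie close together there, so its number of regions and their spacing are a description and carry no test. The assay was ATAC-seq: a transposase inserts sequencing adapters into DNA that is free of nucleosomes, so that accessible stretches yield most of the fragments. The cells were regulatory T cells (Treg cells) of C57BL/6 mice, sorted as CD4+CD25+. The 16 samples, taken from 8 mice, fall into 8 groups with 2 samples each: epididymal visceral adipose tissue, injured hindlimb skeletal muscle, colonic lamina propria in groups titled Nrp1p and Nrp1n, and for each of these the spleen of the same mice. No transgene, treatment or age is given in the labels beyond the muscle injury.

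The values are positions alone. The list is 1 for the whole series and gives no signal, count or score for any region or sample, so depth is unknown, replicate error cannot be given, no tissue can be compared with its spleen, and the identity of the sorted cells could not be checked against markers. A region on the list may have been accessible in 1 sample or in all of them.

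CD28, CTLA-4 and ICOS are related immunoglobulin-superfamily receptors of T cells. CD28 gives the costimulatory signal that a T cell needs beside its antigen receptor, and CTLA-4 competes with it for the same ligands, CD80 and CD86, with higher affinity. Treg cells carry CTLA-4 without prior activation and use it to strip or block these ligands on antigen-presenting cells, and mice that lack it die of lymphoproliferation. ICOS binds a ligand of its own and is found on activated T cells and on effector Treg cells, the state common in non-lymphoid tissue. In the RefSeq gene table (assembly GRCm38.p6) the 3 genes are the only protein-coding genes between Raph1 and Pard3b. Between Cd28 and Ctla4 it lists 3 long noncoding RNAs (2310016D23Rik, Gm38137 and Gm39650) and 3 pseudogenes, and between Ctla4 and Icos 1 long noncoding RNA, Gm34649, and 1 pseudogene.

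Gene positions on mm9 were at hand only as approximate values rounded to 10 kb: Cd28 at 60.77 to 60.83 Mb, Ctla4 at 60.94 to 60.95 Mb and Icos at 61.03 to 61.06 Mb. They were checked against the distances between the genes within GRCm38.p6, without moving a coordinate from that build to mm9. From the end of Cd28 to the end of Icos the table has 227 kb and the given positions 230 kb. From the end of Ctla4 to the end of Icos the table has 84.5 kb and the given positions 110 kb. The place given for Ctla4 thus does not sit between its neighbours as in the gene table, by 25.5 kb, which is more than the rounding. Cd28 also measured 27.0 kb in the table against 60 kb as given, and Icos 39.55 kb against 30 kb. Each stretch below is therefore named by the position given for a gene, and no single region is assigned to the body or promoter of Ctla4.

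Of the 3 members, Ctla4 had an entry in the RefSeq promoter table. Its 250 bases upstream of the transcription start (GRCm38.p6, chromosome 1, plus strand) are shown because Ctla4 is the member that Treg cells are best known for, and because the factors NFAT and Foxp3 are known to act at this gene. The capitals mark matches on either strand to GGAAA, the core letters of NFAT sites, and to TGTTT, letters shared by many forkhead sites.

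Ctla4: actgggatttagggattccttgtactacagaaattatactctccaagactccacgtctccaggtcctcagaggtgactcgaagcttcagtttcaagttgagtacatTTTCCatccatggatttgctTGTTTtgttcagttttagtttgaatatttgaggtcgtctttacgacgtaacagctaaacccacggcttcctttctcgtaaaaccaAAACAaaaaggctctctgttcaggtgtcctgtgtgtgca

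GGAAA occurred 1 time, on the minus strand, with its match beginning 144 bases before the start. TGTTT occurred 2 times, beginning 124 bases before the start on the plus strand and 39 bases before it on the minus strand. Such short matches are common: of 32851 RefSeq promoter stretches of the same length, 55.6% hold GGAAA and 46.4% hold TGTTT on either strand. The AP-1 letters TGACTCA, held by 4.46% of the stretches, and the CRE letters TGACGTCA, held by 1.55%, were not found in this window. No motif searched overlapped another, and a match is not evidence that a factor binds. Because the regions are on mm9, none of them could be laid over this sequence.

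Accessible regions were packed more densely in the locus than in most of the genome. The locus had 222 regions per Mb, against 28.6 per Mb over chromosomes 1 to 19 and X, a ratio of 7.77. Regions covered 17279 bp, or 4.80% of the window, against 0.577% of the chromosomes as a whole. The 360 kb on either side were far emptier than the locus, with 29 regions in the 360 kb before the window and 16 in the 360 kb after it. Both counts were still above 13, the median of consecutive 360 kb windows of the list that hold any region.

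Set beside 7313 consecutive windows of 360 kb laid from the first base of each chromosome, the locus matched the fullest. The median window held 3 regions, the 99th percentile was 55, and 2750 windows held none. The count of 80 was reached by 1 of these windows, on chromosome 10, and the second fullest, with 78 regions, was the one that covers most of this locus (chr1:60840001-61200000). With the windows laid 180 kb further along, 3 of 7300 held 80 or more and the fullest had 84. After regions under 500 bp apart were joined, the locus kept 67 and no window of the first laying reached that number (highest 63). The moved windows were not counted after joining. Windows laid in this way can cut a dense stretch, whereas the locus window was placed on one. The plot of region numbers per window shows these values.

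**Figure D1:**
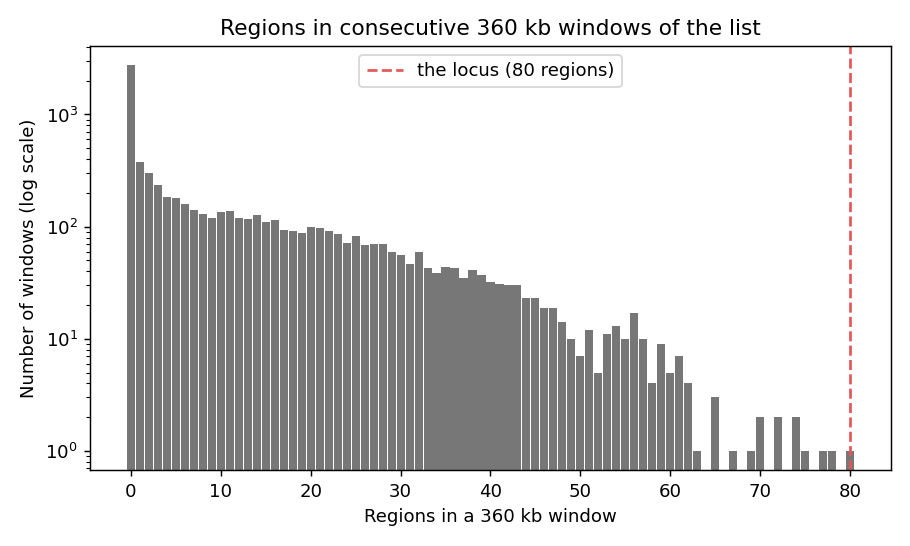
Number of consecutive 360 kb windows of chromosomes 1 to 19 and X (vertical axis, log scale) by the regions each holds (horizontal axis). The dashed line marks the 80 regions of the Cd28, Ctla4 and Icos locus; the median window holds 3, and 1 window reaches 80.

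Within the locus the regions were unevenly spread. The counts per stretch follow the given positions, which do not match the gene table for Cd28, Ctla4 and Icos. The 60 kb given for Cd28 held 8 regions, or 1.33 per 10 kb. These 60 kb make up 16.7% of the window and held 10.0% of its regions (exact binomial 95% interval 4.42 to 18.8%). The 10 kb given for Ctla4 held 4 regions, 5.00% of the regions (1.38 to 12.3%) in 2.78% of the window, or 4.00 per 10 kb. The 30 kb given for Icos held 6, or 2.00 per 10 kb.

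The other regions lay outside the given gene positions. Between the positions given for Ctla4 and Icos, 80 kb held 26 regions, 32.5% of the total (22.4 to 43.9%) in 22.2% of the length, or 3.25 per 10 kb. Between those given for Cd28 and Ctla4, 110 kb held 23 regions, 28.8% of the total in 30.6% of the length, or 2.09 per 10 kb. After Icos, 50 kb held 12 regions, or 2.40 per 10 kb, and the 20 kb before Cd28 held 1. The intervals take regions as independent draws, which neighbours are not. In order of density the stretches ran from Ctla4 through Ctla4 to Icos, after Icos, Cd28 to Ctla4, Icos and Cd28 to the stretch before Cd28. Turned into regions per 10 kb, the intervals of neighbours in this order overlap, from 1.10 to 9.85 for Ctla4 and 2.24 to 4.39 for Ctla4 to Icos down to 0.589 to 2.50 for Cd28. The counts for Ctla4 and for both stretches beside it, and so this order, rest on the doubtful position. From the end of Ctla4 to the start of Icos the gene table has 44.9 kb, against 80 kb as given. That distance depends on the start given for Icos too, and Icos measured 39.55 kb in the gene table against 30 kb as given. The low place of Cd28 in the order likewise rests on its given length of 60 kb, against 27.0 kb in the gene table. Those 60 kb include the longest gap of the locus, 32202 bp.

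**Figure D2:**
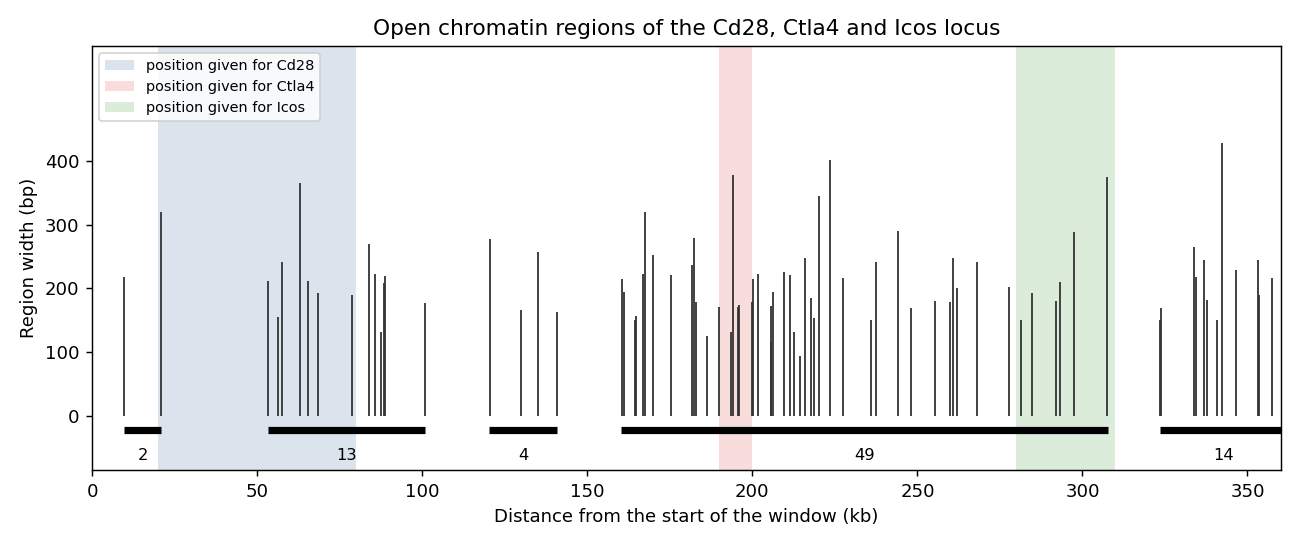
The 80 regions of the locus as vertical lines at their distance from the start of the 360 kb window (horizontal axis, kb), each as tall as the region is wide (vertical axis, bp); shading marks the approximate gene positions. Black bars span clusters of regions under 12.5 kb apart, with their number of regions; the bar of 49 runs from before the position given for Ctla4 into that given for Icos, and the bar of 14 includes 2 regions beyond the window.

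In bins of 10 kb, 7 of the 36 bins of the locus held 4 or more regions, or 19.4%, against 1.45% of all 263523 bins of the list. Among bins with any region the shares were 24.1% in the locus and 9.33% in the list. The fullest bins of the locus, with 7 regions each, began at 60.91 and 60.95 Mb, and the bin at 60.96 Mb held 6. A bin with 5 regions began at 60.83 Mb, just past the position given for Cd28. It was followed by a thin stretch: none of the bins from 60.84 Mb up to 60.91 Mb held more than 2. A 10 kb stretch moved along in 1 kb steps between the positions given for Cd28 and Icos held 0 to 7 regions (median 2 over 191 placements). The 4 regions of the position given for Ctla4 lie within that range, and 36 placements inside the chain of 25 regions described next held 2 to 7 (median 6).

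**Figure D3:**
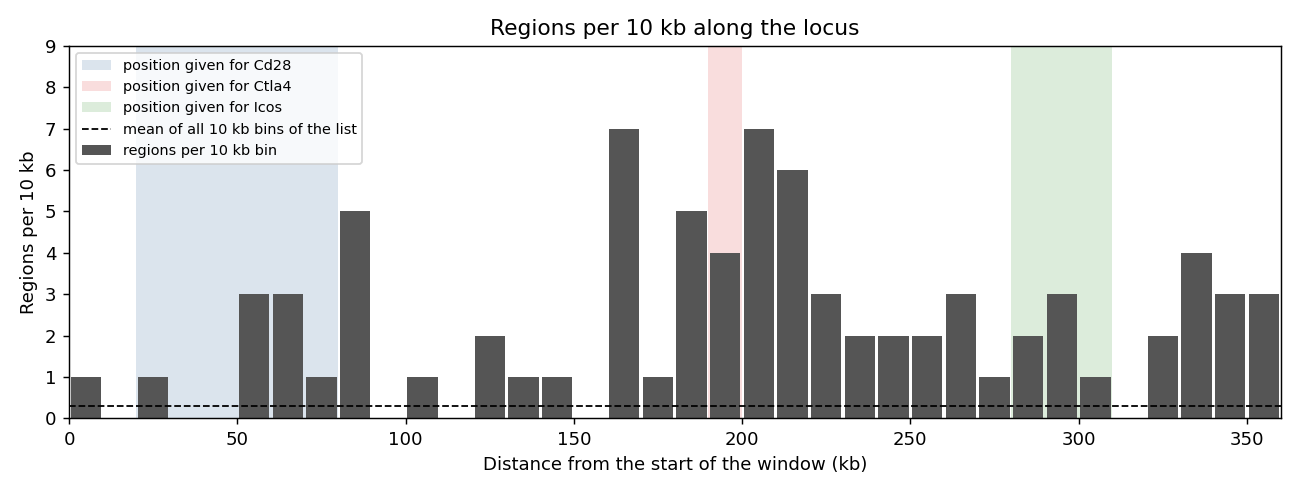
Regions in each 10 kb bin (vertical axis) by distance from the start of the window (horizontal axis, kb), with the approximate gene positions shaded; the dashed line is the mean of all 10 kb bins of the list, 0.286. The 2 fullest bins hold 7 regions, and 7 of the 36 bins hold none.

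The chain of the locus with the most regions held 25 over 45.9 kb, chr1:60931712-60977599, with no gap that reached 5 kb. At 5.45 regions per 10 kb it was less dense than a shorter chain of 7 regions at chr1:60910294-60920045, with 7.18. The chain of 25 takes in the position given for Ctla4. At a link distance of 5 kb no other chain of the list had as many regions: the next held 22 (chr8:84280658-84318627), 21 (chr6:114842612-114886842) and 20 (chr6:15660751-15703499). At 4 kb its largest piece held 16 regions, shared as the highest number with 2 other chains. At 6 kb it stayed at 25 and 3 chains were larger, up to 32. The median gap within it was 1361 bp, and regions covered 11.3% of its length.

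Along this chain, single regions a few kilobases apart alternated with close pairs. It opened with 3 regions at chr1:60931712-60931948, chr1:60932221-60932499 and chr1:60932808-60932986, separated by 272 and 308 bp. After 2 regions that stood alone came the 4 of the position given for Ctla4. These were a 132 bp region at chr1:60943533-60943664, a 377 bp region at chr1:60943878-60944254, and a pair of 171 and 174 bp at chr1:60945504-60945674 and chr1:60945755-60945928. The 377 bp region lay 213 bp from the one before it, and 80 bp separated the members of the pair.

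Past 60.95 Mb the chain went on with a pair 51 bp apart (chr1:60949931-60950109 and chr1:60950161-60950374) and 3 regions within 1 kb that began at chr1:60955464-60955579. From 60959346 onward single regions followed one another at gaps of 594 to 3769 bp as far as the end of the chain. Near that end, a 345 bp region (chr1:60970160-60970504) was next to the widest of the chain, of 401 bp (chr1:60973214-60973614). The narrowest region of the locus, 94 bp wide (chr1:60964445-60964538), lay among these single regions.

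Around the position given for Cd28, accessible regions were unevenly spread. The first 2 members, of 218 bp (chr1:60759544-60759761) and 320 bp (chr1:60770604-60770923), stood apart from all others, and the longest gap of the locus, 32202 bp, followed the second. A group of 13 regions over 47.7 kb, linked at gaps under 12.5 kb, began at chr1:60803126-60803337 and ran past the end of the position given for Cd28. This group had 2.72 regions per 10 kb and a median gap of 2523 bp, against 2914 bp in the whole locus. The link distance keeps longer gaps out of such a group. The widest region of the group, of 365 bp, was at chr1:60812689-60813053. The 4 regions that followed, over 20.4 kb, lay in the intergenic stretch with gaps of 19485 bp before them and 19496 bp after them.

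At the Icos end the regions were again spaced by kilobases. The position given for Icos held regions of 151 to 374 bp with gaps of 897 to 9904 bp between them. Its widest region, of 374 bp (chr1:61057353-61057726), closed the large cluster and was followed by 15734 bp without a region. The 12 regions after it included the widest of the locus, of 428 bp (chr1:61092045-61092472), and the closest pair, chr1:61103019-61103262 and chr1:61103285-61103474, only 22 bp apart. The last member began at 61107269, and the next region of the list, chr1:61111298-61111549, lay 1298 bp beyond the end of the window. At the other end the first member lay 9544 bp inside the window and the last region before the window ended 22661 bp outside it.

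Neighbouring regions in the locus were separated by a median of 2914 bp (95% interval 1762 to 3757 bp, from binomial ranks, n = 79 pairs), against 5200.5 bp over 75336 pairs of the list. The interval takes gaps as independent draws, which neighbouring gaps are not. Because the rule that chose the locus reads these same positions, the interval is no test against the list. A gap under 12.5 kb separated 75 of the 79 pairs, or 94.9%, against 68.1% in the list. The tightest spacing was not more frequent than elsewhere: 13 pairs, or 16.5%, were under 500 bp apart, against 22.2% in the list. Under 1000 bp the shares were 27.8% and 28.7%. At kilobase distances, 36 pairs, or 45.6%, had a gap of 1 to 5 kb, against 20.5% in the list. With few gaps of 12.5 kb or more in the locus, shorter gaps necessarily make up more of its pairs. A larger share than in the list was also found in the other large clusters described below, at 34.4 to 56.1%.

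**Figure D4:**
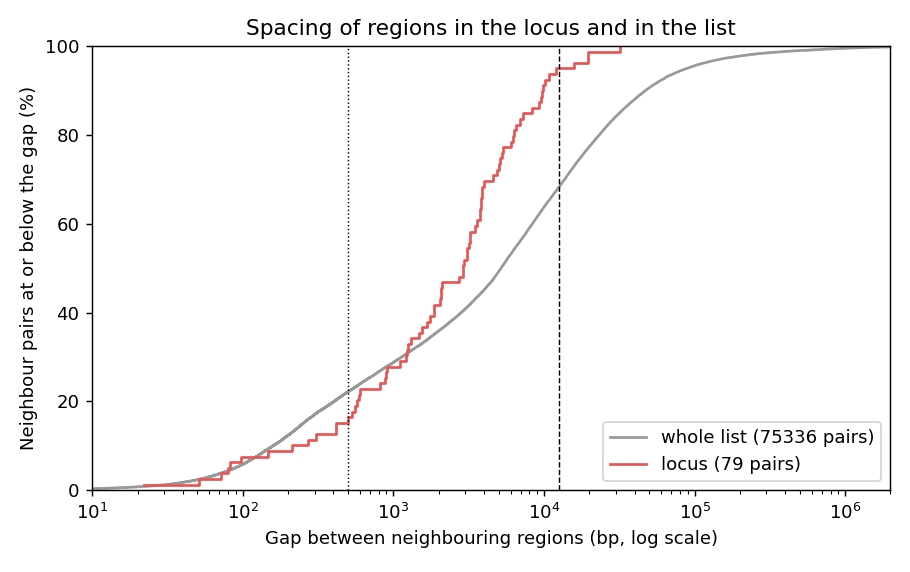
Share of neighbour pairs at or below each gap (vertical axis, %) by gap (horizontal axis, bp, log scale) in the locus (red, 79 pairs) and in the list (grey, 75336 pairs); the dotted line marks 500 bp and the dashed line 12.5 kb. The red curve lies below the grey one at 500 bp, meets it near 1000 bp and then rises more steeply, to 94.9% against 68.1% at 12.5 kb.

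Linked at 12.5 kb, 49 of the regions formed a cluster of 147 kb, chr1:60910294-61057726, which began before the position given for Ctla4 and ended within the position given for Icos. By number of regions it came in the list after clusters on chromosomes 14 (65) and 12 (64) and before those on chromosomes 7 (45) and 1 (42). These clusters were alike in density, at 3.32 regions per 10 kb here and 3.06 to 3.38 in the other four. They differed in how much of it came from close pairs, although none of this was tested. In the Ctla4 and Icos cluster 20.8% of the gaps were under 500 bp and 50.0% were 1 to 5 kb. In the chromosome 14 cluster the shares were 31.2% and 34.4%, in the chromosome 12 cluster 25.4% and 36.5%, and in the chromosome 7 cluster 29.5% and 43.2%. The cluster of 42 regions on chromosome 1 (chr1:69625558-69762930) was closest to it, with 22.0% and 56.1%.

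**Figure D5:**
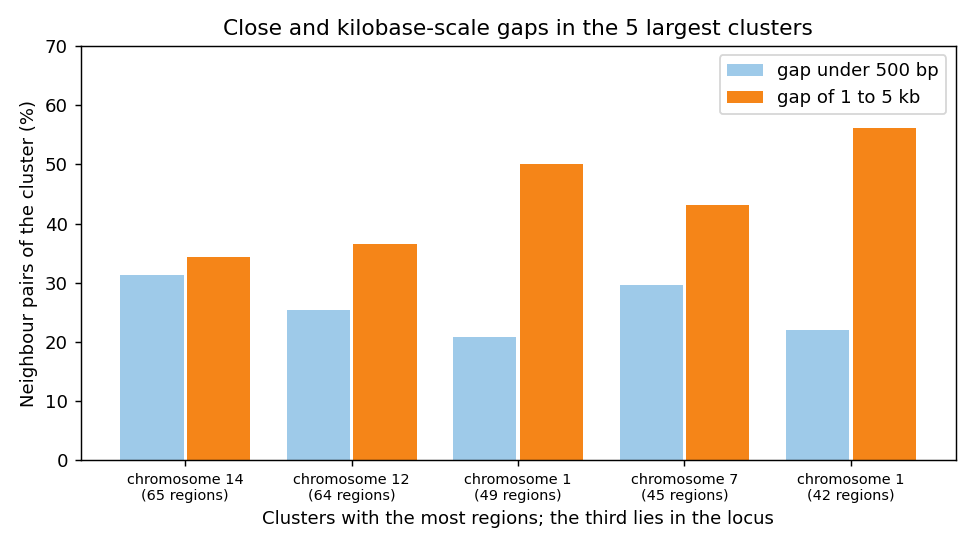
Share of neighbour pairs (vertical axis, %) with a gap under 500 bp (blue) and of 1 to 5 kb (orange) in the 5 clusters of the list with the most regions (horizontal axis). The third, with 49 regions, lies in the locus and has 20.8% of its gaps under 500 bp and 50.0% of 1 to 5 kb; pairs of one cluster share a locus, so the bars have no error.

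The median width was slightly larger in the locus than in the list, a difference that was not tested. In the locus it was 211 bp (95% interval 190 to 221 bp, from binomial ranks, n = 80), against 191 bp in the list, a value inside that interval. The interval takes regions as independent draws, which neighbours are not. The quartiles were 172 and 242 bp in the locus and 165 and 227 bp in the list. There were 8 regions of 300 bp or more, 10.0% against 6.32% in the list. At the narrow end, 12 exact widths of 150 bp or less are overrepresented in the list. The locus had 8 regions of such a width, or 10.0% against 14.2%: 3 of 150 bp, 3 of 132 bp and 1 each of 94 and 116 bp. By stretch the median width ran from 172.5 bp at the position given for Ctla4, with 4 regions of 132 to 377 bp, to 218 bp for the single region before Cd28. The positions given for Cd28 and Icos had medians of 212 and 201.5 bp.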

How the data were processed

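For all samples together the submitters deposited a single BED-like list of open chromatin regions (per the file headers, a chromosome, a start and an end, in bp). Their notes on processing name HOMER 4.6, Bowtie2 2.2.4, Picard 1.130, SAMtools 1.3 and cutadapt 1.8.3, and mm9 as the build. How regions were called, combined and filtered is not given in the sources used here; these steps decide which regions appear and how finely an open site is divided.

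Starts were raised by 1 base to count from 1. A region joined the locus by overlap and a stretch by its centre, and a gap is the number of bases between neighbours. Chromosome Y was left out of density, windows and gaps, and the end of the last region served as chromosome length. A width counted as overrepresented if it had over 5 times as many regions as the median width within 8 bp of it (median set to at least 10). No test was run: the members and lists were chosen with earlier results of these data known, and regions are not replicates. Named by rule were the widest region of each stretch, the 5 widest, 3 narrowest, 5 closest pairs, 5 longest gaps, those next to the window's ends and all at the position given for Ctla4; the other regions named were chosen after their values were seen. A planned comparison of protein sequences was not run. Functions were checked on simulated data (Python 3.11.15, numpy 2.4.6, pandas 2.3.3, scipy 1.17.1).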

Additional observations from a re-analysis of the deposited data

How the results depend on the processing

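Of 87 recomputed values for 15 results, 78 stayed within the counting interval of the reported value or, for counts, within 1.5 times of it. The other 9 moved. The locus held 48 regions when those narrower than the list's median were dropped. Against the mean of same-length windows that hold any region, the density ratio was 4.86 in place of 7.77. Joining regions under 1000 bp apart raised the median gap to 3794 bp and left 16 regions in the 5 kb chain, with no larger chain in the list. Joining under 500 bp raised the median width to 222 bp. A limit of 250 bp gave 8 close pairs and one of 1000 bp gave 22. Links of 5 and 25 kb gave a largest cluster of 25 and 84 regions, the latter running past the end of the window and so including regions that are not members. Within their wide intervals, the share of regions at the position given for Ctla4 went from 5.00% to 11.25% with gene edges widened by 5 kb and to 2.08% with regions of median width or more, and the share before Cd28 from 1.25% to 2.5% with edges narrowed by 2 kb. Dropping regions narrower than the median, the largest 5 kb chain of the locus held 9, with 1 larger in the list. Without the overrepresented widths it held 21, with none larger, but at a 4 kb link 8, with 34 larger. The 5 kb chain with its 4 and 6 kb links, the moved windows, the moved Ctla4 stretch and, except for the median width, leaving out those widths were chosen after seeing the data. No paired analysis was possible because regions carry no values for single samples, although each tissue sample shares a mouse with a spleen sample. Depth is unknown, so a stretch without a region is one where none was called.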
